A study of Dugesia japonica with 15 samples.

Results

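Trunk fragments of the freshwater planarian *Dugesia japonica*, collected 5 days after amputation (5 dpa), were compared between animals given RNA interference (RNAi) against DjTcf4 and animals given control RNAi. The comparison holds 7 of the 15 libraries of the series, chosen by their labels: 3 from DjTcf4 RNAi fragments (replicates 1, 3 and 4) and 4 from control RNAi fragments (replicates 1 to 4). The other 8 libraries came from uncut animals, 4 with DjTcf4 RNAi and 4 with control RNAi, and were used only to follow the genes that differed at 5 dpa. Each library was made from polyadenylated RNA of a group of animals, so a value is an average over whole fragments or whole bodies. All animals received RNAi; the sequence targeted in the control is not given in the sources used here. In such bulk samples, fewer cells of a type and less RNA per cell cannot be told apart.

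Planarians regrow missing body parts from neoblasts, a population of dividing stem cells that persists in the adult and gives rise to new differentiated cells. A trunk fragment has lost both head and tail and rebuilds both ends while its remaining tissue is remodelled. Proteins of the TCF/LEF family bind DNA through an HMG box and, with β-catenin, switch target genes on in response to Wnt signals, which in planarians set the identity of head and tail. Whether DjTcf4 acts in this way was not examined here. The title of the series links DjTcf4 to when cells differentiate as the body regrows.

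The deposited table identifies genes by ID and does not pair the IDs with names, so the knockdown could not be checked on DjTcf4, whose ID is unknown and which may be any gene given here. Markers of tissues and cell types were not analysed here for the same reason. At most 2 IDs are given in each direction, and other genes are described by their place in the order of p-values.

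Total counts lay between 9580929 and 11808084 in the DjTcf4 RNAi libraries and between 8136366 and 11575613 in the control libraries. Of 38792 genes in the table, 15959 had enough counts at 5 dpa to be tested (41.1%). Levels are in CPM, counts relative to the scaled library size, which are not corrected for gene length. The groups overlapped on both leading principal components, which held 29.6% and 23.4% of the variance. Control replicate 2 stood apart on the first, at 48.2, against -26.2 to 11.8 in the other 6 libraries. Correlations between libraries lay between 0.967 and 0.986. The biological coefficient of variation, the spread between replicates beyond counting error, was 0.171 within the DjTcf4 RNAi libraries and 0.144 within the controls, and 0.106 within the controls without replicate 2. Genes with a count numbered 22350, 21883 and 21149 in the DjTcf4 RNAi libraries and 21465, 19888, 21650 and 21532 in the controls. The difference of the means, 660.25 genes, was within the spread (two-sided exact permutation p = 0.371, n = 3 and 4), as was that of the share of counts in the 100 most abundant genes, -0.495 percentage points (exact permutation p = 0.371). The smallest p this design allows is 0.0286.

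The comparison asked which genes differed with DjTcf4 RNAi in regenerating fragments. With DjTcf4 RNAi, 16 genes changed (0.100% of those tested), of which 13 fell (0.0815%) and 3 rose (0.0188%; edgeR's quasi-likelihood test, Benjamini-Hochberg adjusted p under 0.05). The 13 genes that fell had log2 fold changes between -2.10 and -0.74 with a median of -1.12, and 9 of them changed at least 2-fold. Of the 3 that rose, 1 changed at least 2-fold, and their log2 fold changes lay between 0.69 and 1.48. These 10 genes past 2-fold are 0.0627% of those tested. In all 16 genes the DjTcf4 RNAi libraries lay wholly below or wholly above the controls, an arrangement seen in 3.32% of all tested genes below and 2.41% above. The 16 were chosen on these same libraries, so this separation adds no support. The unadjusted p was under 0.05 for 738 genes (4.62%), against 798 if no gene differed, with 432 lower and 306 higher. DESeq2 called 55 of 26278 genes fitted (45 down, 10 up) and limma-voom 32 of 15959 (22 down, 10 up), and both lists held all 16.

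**Figure D1:**
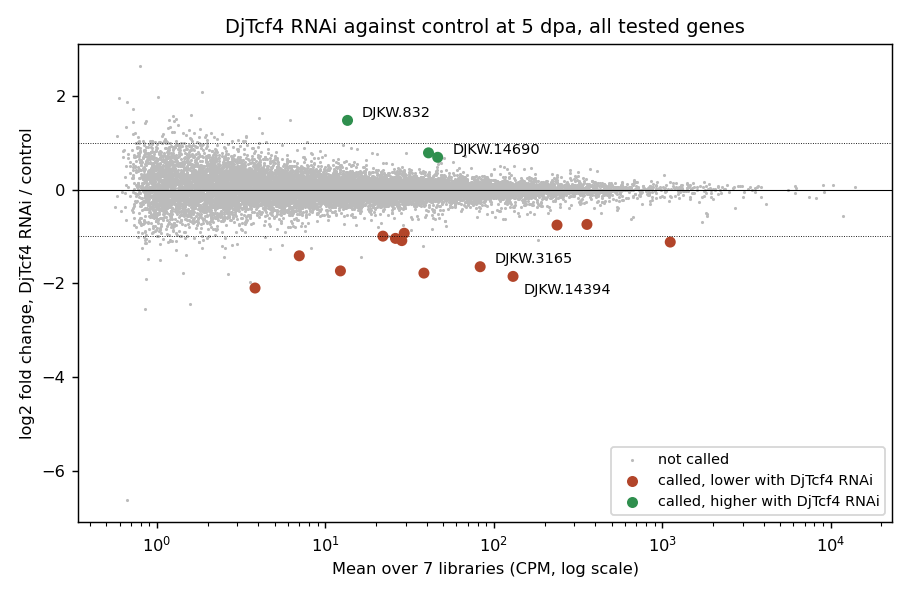
The log2 fold change of DjTcf4 RNAi over control at 5 dpa (vertical axis) is plotted against mean CPM over the 7 libraries (log axis) for the 15959 tested genes. Red points are the 13 genes called lower and green points the 3 called higher; dotted lines mark 2-fold. Genes in grey were not called, and their scatter widens at low CPM.

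Of the 16 genes, 5 were called in each leave-out of a single library and in every other alternative they entered, with 4 lower and 1 higher, all changed at least 2-fold. The clearest was DJKW.14394, at 48.4, 56.0 and 52.1 CPM in the DjTcf4 RNAi libraries, against 176, 181, 179.6 and 217 CPM in the controls. The highest RNAi library was far below the lowest control. Mean levels were 52.2 ± 3.85 CPM with DjTcf4 RNAi (SD, n = 3) and 188 ± 19.5 CPM in controls (SD, n = 4), a log2 fold change of -1.85 with SE 0.110 (edgeR adjusted p = 1.51e-06). DJKW.3165 stood at 33.6, 42.1 and 36.6 CPM with DjTcf4 RNAi, against 106, 109, 116 and 138 CPM in controls. It too was well separated, with means of 37.4 ± 4.28 CPM with DjTcf4 RNAi (SD, n = 3) and 117 ± 14.6 CPM in controls (SD, n = 4) and a log2 fold change of -1.65 with SE 0.125 (edgeR adjusted p = 2.05e-05).

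The called gene with the third smallest p stood at 13.8, 13.1 and 21.1 CPM with DjTcf4 RNAi, against 54.8, 59.9, 50.1 and 56.3 CPM in controls, or -1.78 on the log2 scale with SE 0.164 (edgeR adjusted p = 0.000161). RNAi replicate 4 was the highest of its group here, and still far below the controls. The fourth was the most abundant called gene, at 611, 793 and 598 CPM with DjTcf4 RNAi, against 1347, 1563, 1310.05 and 1582 CPM in controls. It fell by 1.12 on the log2 scale (SE 0.116, edgeR adjusted p = 0.00054). Its counts had fractional parts, which can arise when reads are shared out among like sequences, so its values are uncertain.

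DJKW.832 alone of the 3 genes that rose was called in every alternative. It stood at 20.8, 26.8 and 16.6 CPM with DjTcf4 RNAi, against 8.07, 6.52, 7.92 and 8.02 CPM in controls. The lowest RNAi library was well above the highest control. Its log2 fold change was 1.48 with SE 0.186 (edgeR adjusted p = 0.00435), and between 1.29 and 1.63 over the alternatives, whose adjusted p lay between 3.54e-11 and 0.0489. The other 2 genes that rose were changed less than 2-fold. DJKW.14690 stood at 52.3, 61.1 and 64.5 CPM with DjTcf4 RNAi, against 36.0, 38.5, 34.3 and 38.1 CPM in controls, or 0.69 on the log2 scale with SE 0.114 (edgeR adjusted p = 0.0364). This gene had fractional counts and was called in 10 of 17 alternatives (adjusted p between 9.23e-05 and 0.237). The remaining gene that rose stood at 49.9, 61.7 and 50.0 CPM with DjTcf4 RNAi, against 28.5, 27.6, 33.4 and 35.4 CPM in controls. RNAi replicate 3 was highest for this gene and for DJKW.832, and RNAi replicate 4 for DJKW.14690.

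The other 9 genes that fell covered a range of levels. The gene with the sixth smallest p was the most even within the RNAi group, at 166, 172 and 173 CPM, against 256, 276, 275 and 343 CPM in controls (log2 fold change -0.76, SE 0.105). The ninth was at 223, 309 and 242 CPM with DjTcf4 RNAi, against 416, 420.1, 411 and 478 CPM in controls. In both, control replicate 4 was the highest library. The seventh was at 13.5, 15.7 and 12.9 CPM with DjTcf4 RNAi, against 25.9, 28.2, 29.0 and 28.4 CPM in controls. The tenth was at 16.3, 21.0 and 14.6 CPM with DjTcf4 RNAi, against 31.1, 36.3, 33.6 and 45.9 CPM in controls. In both, the RNAi libraries were clear of the controls. Of the 7 fits that leave out a library, the sixth and seventh genes were called in 5, the tenth in 3 and the ninth in 1. Of these, the seventh and ninth had fractional counts. The thirteenth and fifteenth are the only 2 called genes whose IDs start with Maker, a label that 346 of the tested genes carry (2.17%). The thirteenth was at 19.9, 16.9 and 11.9 CPM with DjTcf4 RNAi, against 36.4, 36.5, 30.4 and 30.5 CPM in controls. The fifteenth was at 19.4, 21.2 and 17.5 CPM with DjTcf4 RNAi, against 35.2, 30.5, 34.2 and 47.5 CPM in controls. The groups did not overlap, and the genes were called in 9 of 18 and 5 of 17 alternatives without a fold threshold.

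The last 3 genes that fell were scarce. The eighth was at 5.81, 6.84 and 3.26 CPM with DjTcf4 RNAi, against 14.7, 14.4, 18.4 and 22.6 CPM in controls (log2 fold change -1.74, SE 0.251). The sixteenth was at 3.12, 4.52 and 3.18 CPM with DjTcf4 RNAi, against 9.66, 9.05, 7.06 and 12.4 CPM in controls. The eleventh had the largest fold change of the called genes, at 1.30, 0.736 and 1.84 CPM with DjTcf4 RNAi, against 4.17, 7.36, 6.53 and 4.81 CPM in controls (log2 fold change -2.10, SE 0.340, edgeR adjusted p = 0.0332). It also had the largest standard error of the 16, and was called in 1 of the 7 fits that leave out a library.

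**Figure D2:**
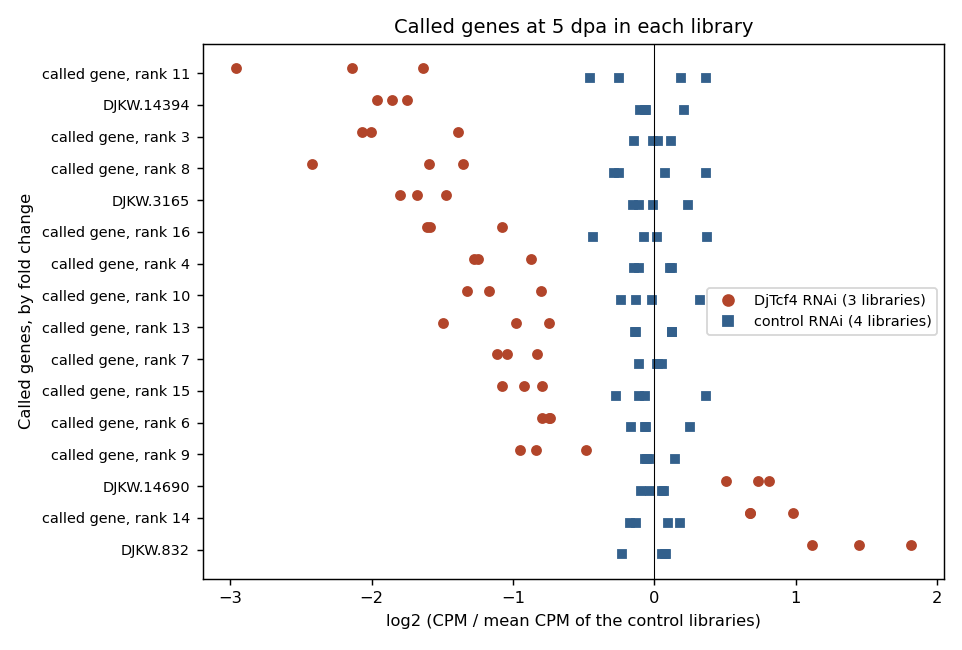
Each of the 16 called genes is a line of points giving log2 of CPM over the mean CPM of the 4 control libraries; red circles are the 3 DjTcf4 RNAi libraries and blue squares the 4 controls. Genes without an ID are numbered by p from smallest to largest, and the groups do not overlap for any of the 16.

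The called genes were not among the scarcest. When the tested genes were split by mean CPM into 4 bins of equal size, none was called by edgeR in the lowest bin (median 1.78 CPM), with 175 at an unadjusted p under 0.05 (4.39%), and the median standard error was 0.395. The next bins had 3, 7 and 6 called genes, at median CPM of 7.16, 23.8 and 93.6. At an unadjusted p under 0.05, 176 of the 3990 genes in the highest bin were lower and 70 higher, while in the lowest bin 66 were lower and 109 higher. DESeq2 and limma-voom were not split by level. Counts were fractional for 5 of the 16 called genes (31.2%) and for 2684 of all tested genes (16.8%).

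The called list changed with each library left out. Control replicate 4 was the highest control in 9 of the 13 genes that fell, while it was the highest control in 19.4% of all tested genes. RNAi replicate 3 was the highest RNAi library in 9 of the 13, against 29.9% of all tested genes. Among the RNAi libraries, 16 genes were called without replicate 1, 14 without replicate 3 and 7 without replicate 4, of which 11, 9 and 5 were among the 16. Among the controls, 10 genes were called without replicate 1 and 6 without replicate 4, all among the 16. Without control replicate 3, 11 were called, and without control replicate 2, the library that stood apart, 12, with 10 of the 16 in each list.

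**Figure D3:**
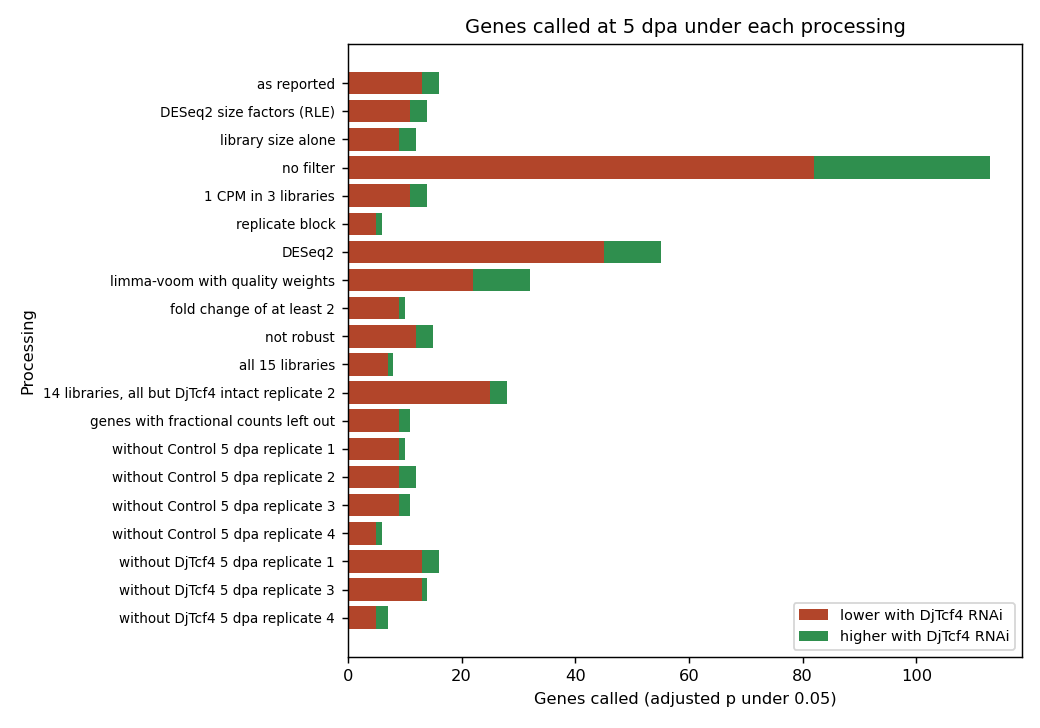
Bars give the number of genes called at 5 dpa under each processing, lower with DjTcf4 RNAi in red and higher in green. The count was 16 as reported and ranged from 6 to 113, and lower genes outnumbered higher ones in each bar.

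Across all tested genes, levels with DjTcf4 RNAi and control lay close together. The median log2 fold change was 0.0036, a value that the scaling sets near 0, so it adds nothing on whether levels were alike. Of the tested genes, 95% lay between -0.53 and 0.64. A change of at least 2-fold in the estimate was seen in 57 genes downward and 73 upward, of which 9 and 1 were called. For 12933 genes (81.0%) the 95% confidence interval of the log2 fold change lay within 2-fold in either direction, and for 8461 (53.0%) within 1.5-fold. In the lowest bin by CPM this held within 2-fold for 34.5% of genes, and in the highest for 99.5%. Genes present in one group alone were few and scarce. After rounding, a count in every DjTcf4 RNAi library and 0 in all controls was seen in 51 genes and the reverse in 10, with at most 25 counts in total. The DjTcf4 RNAi group has fewer libraries than the control group, so the criteria behind 51 and 10 were unequal. The control group also held the library with the smallest total. These numbers are therefore not compared, and no RNAi effect is read from them. The 7 genes that averaged at least 1 CPM in one group and were at 0 after rounding in every library of the other all had fractional deposited counts, and none of them had a count in every library of the group where it was present.

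The 16 genes were then read in uncut animals, which share no library with the 5 dpa comparison. There, edgeR called 1 of 16129 genes (0.00620%), and this was the gene with the third smallest p at 5 dpa. It stood at 18.2, 15.4, 18.5 and 18.9 CPM with DjTcf4 RNAi, against 54.3, 50.1, 53.3 and 60.4 CPM in intact controls (-1.62 on the log2 scale with SE 0.130, edgeR adjusted p = 0.00197). The groups were as clearly apart as at 5 dpa. Intact CPM values are scaled among the 8 intact libraries and are compared only within that stage.

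Of the 13 genes lower at 5 dpa, 12 were also below 0 on the log2 scale in the uncut bodies, against 47.8% of all genes tested in both stages, with a median of -0.59. The exception was the gene with the sixth smallest p, at 0.15 (SE 0.138). For 5 of the 13 the DjTcf4 RNAi libraries lay wholly below the controls in intact animals, against 1.77% of all genes. The same held above the controls for 1 of the 3 genes that rose, by a small margin, against 1.77% of all genes. Of the 16, 9 had an unadjusted p under 0.05 in intact animals, against 4.08% of all genes. The intact fit depended on DjTcf4 RNAi replicate 2: the biological coefficient of variation was 0.243 with this library and 0.146 without it. Without it, 15 genes were called in intact animals (0.0918%), 4 of the 16 among them, and 11 of the 16 had an unadjusted p under 0.05, against 5.40% of all genes.

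The named genes differed in how far they moved in intact animals. DJKW.14394 stood at 208, 233, 189 and 176 CPM with DjTcf4 RNAi, against 316, 305, 319.7 and 316 CPM in intact controls. The groups were separate, at -0.64 on the log2 scale with SE 0.113 (edgeR adjusted p = 0.714), and at -0.72 without RNAi replicate 2 (edgeR adjusted p = 0.00548). DJKW.3165 stood at 141, 168, 109 and 116 CPM with DjTcf4 RNAi, against 189, 164, 187 and 168 CPM in intact controls. RNAi replicate 2 reached into the control range, and the gene did not pass (-0.41 on the log2 scale with SE 0.146, edgeR adjusted p = 0.822). DJKW.832 stood at 7.21, 12.3, 5.50 and 12.2 CPM with DjTcf4 RNAi, against 5.40, 3.38, 4.20 and 3.88 CPM in intact controls. All RNAi libraries were above all controls by a small margin, at 1.14 on the log2 scale with SE 0.294 (edgeR adjusted p = 0.822). DJKW.14690 stood at 25.5, 35.9, 27.3 and 25.0 CPM with DjTcf4 RNAi, against 30.8, 30.0, 21.9 and 26.2 CPM in intact controls, and the groups overlapped.

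**Figure D4:**
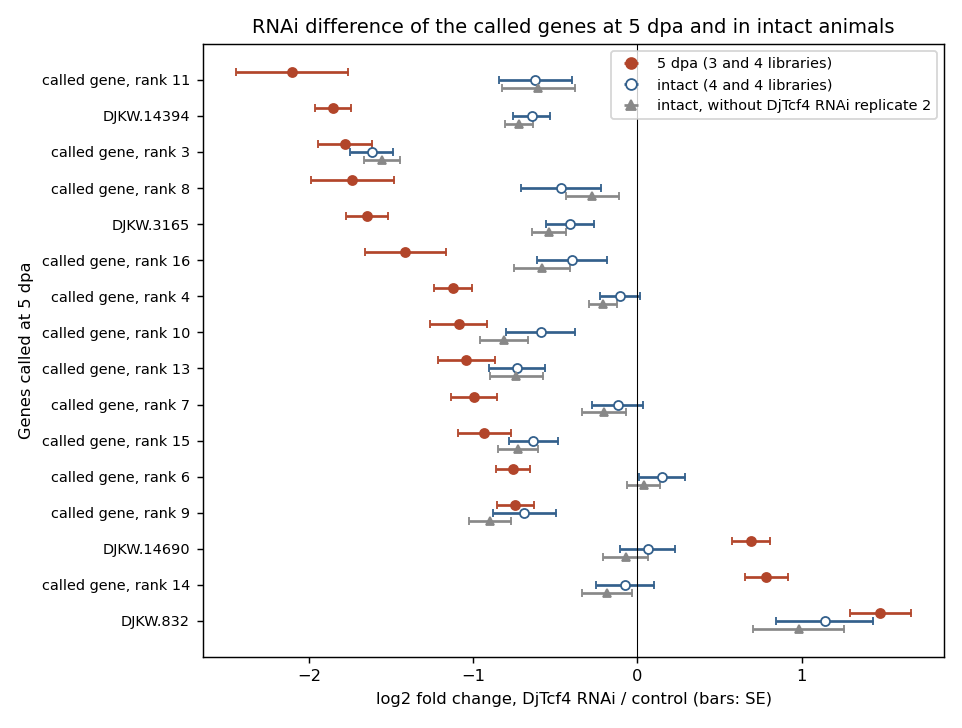
Points give the log2 fold change of DjTcf4 RNAi over control with its SE for the 16 genes called at 5 dpa: at 5 dpa (red), in intact animals (open blue) and in intact animals without DjTcf4 RNAi replicate 2 (grey triangles). The gene numbered 3 had nearly the same value in both stages (-1.78 at 5 dpa and -1.62 intact), while DJKW.14394 was at -1.85 at 5 dpa and -0.64 intact.

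Whether the RNAi difference at 5 dpa exceeded that in intact animals was tested over all 15 libraries. DJKW.14394 was the 1 gene called of 17094 (0.00585%), with a difference of -1.23 on the log2 scale (SE 0.165, edgeR adjusted p = 0.0125), and 593 genes (3.47%) had an unadjusted p under 0.05. This call was not stable to leaving out a library. No gene was called by edgeR when any of the 3 DjTcf4 RNAi libraries at 5 dpa, or intact control replicate 1, 2 or 3, was left out (357 to 716 genes at an unadjusted p under 0.05). Why the call was lost was not tested. With all libraries, DESeq2 called 7 genes and limma-voom 4. Without intact DjTcf4 RNAi replicate 2, 3 genes were called (0.0177%): DJKW.14394 at -1.10, DJKW.3165 at -1.08 and the fourth gene at -0.89 (edgeR adjusted p = 0.00123, 0.0126 and 0.0246). With all libraries the differences of these last 2 were -1.26 and -1.04 (edgeR adjusted p = 0.102 and 0.161). The third gene showed -0.18 (SE 0.210, edgeR adjusted p = 0.961) and DJKW.832 showed 0.31 (SE 0.364, edgeR adjusted p = 0.961). All 16 differences had the sign of the 5 dpa change, a lean that follows from choosing the genes at 5 dpa and supports nothing.

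The change after amputation in the same genes, which shares libraries with the comparison above, is given as values only. For DJKW.14394, 5 dpa over intact was -1.91 on the log2 scale with DjTcf4 RNAi (SE 0.154, edgeR adjusted p = 0.000469) and -0.71 in controls (SE 0.0836, edgeR adjusted p = 1.88e-05). For DJKW.3165 the values were -1.79 with DjTcf4 RNAi (SE 0.192, edgeR adjusted p = 0.00211) and -0.57 in controls (SE 0.0959, edgeR adjusted p = 0.00029). Both genes were thus lower in fragments at 5 dpa than in uncut animals in both RNAi groups. Fragments lack the original head and tail, so lost tissue and a change in the remaining tissue cannot be told apart. For DJKW.832 they were 1.24 with DjTcf4 RNAi (SE 0.310, edgeR adjusted p = 0.0606) and 0.88 in controls (SE 0.199, edgeR adjusted p = 0.00256). For the third gene they were -0.11 with DjTcf4 RNAi (SE 0.212) and 0.05 in controls (SE 0.0949). Of the 13 genes lower with RNAi at 5 dpa, 11 were called lower after amputation with DjTcf4 RNAi (edgeR adjusted p under 0.05), against 1.88% of all genes. In controls 11 of the 13 were called lower, against 23.4% of all genes. Of the 3 genes higher with RNAi, 2 were called higher after amputation with DjTcf4 RNAi, against 1.61% of all genes. In controls 2 of the 3 were called higher, against 18.4%. The contrast with DjTcf4 RNAi had fewer libraries and held intact DjTcf4 RNAi replicate 2. The intact biological coefficient of variation was 0.243 with that library and 0.146 without it. No fit of the contrast without it is given, so the shares called with DjTcf4 RNAi and in controls are not compared. The genes were chosen on 5 dpa libraries that also enter these contrasts, so the counts are shaped by that choice and support nothing.

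**Figure D5:**
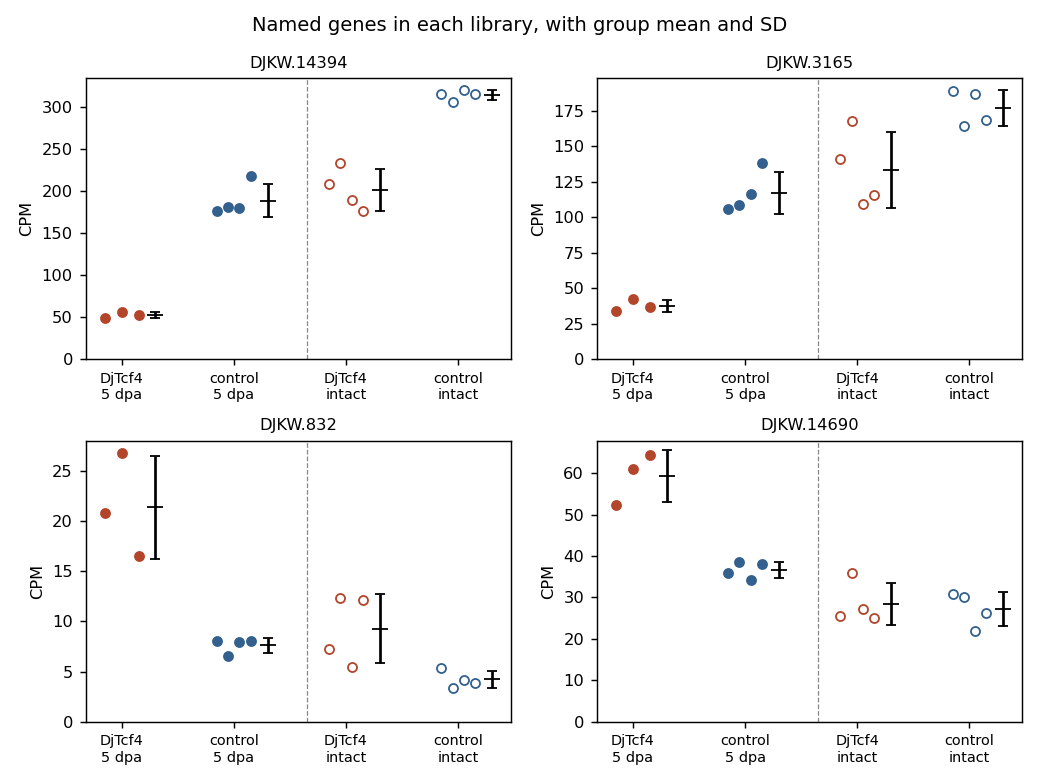
CPM of the 4 named genes in each library, with mean and SD beside the points (n = 3 for DjTcf4 RNAi at 5 dpa, n = 4 otherwise); filled points are 5 dpa and open points intact libraries, DjTcf4 RNAi in red and control in blue. CPM was scaled within each stage, so levels left and right of the dashed line are not compared. In DJKW.14394 the mean is 52.2 CPM with DjTcf4 RNAi against 188 CPM in controls at 5 dpa, and 201 CPM with DjTcf4 RNAi against 314 CPM in controls in intact animals.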

How the data were processed

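The table the authors deposited gives expected counts by gene, which are estimates; 7.98% of those in the 7 libraries at 5 dpa are not whole. Bowtie2, HISAT2, RSEM and DESeq2 appear in the submitters' processing notes without role or version. The build is not given in the sources used here. Each column was matched to its sample through the label that names it. Values were rounded to whole numbers.

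Genes were kept with filterByExpr by group (minimum count 10, minimum total 15), scaled with TMM and tested with edgeR 4.0.16 in R 4.3.3 (robust quasi-likelihood fit to the 7 libraries alone, Benjamini-Hochberg adjusted p under 0.05). Intact animals were fitted to their 8 libraries, and the difference between stages to all 15. Standard errors were taken as the size of the log2 fold change over the root of F; intervals use these with the median degrees of freedom, and are approximate. Log2 CPM for principal components used a prior count of 2. Steps were tested on simulated counts.

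Replicates are those of the labels, which name no separate cultures or batches of animals; p-values then reflect only how far these samples vary, perhaps technically. No 2 replicates at 5 dpa agreed within sampling noise (chi-square per degree of freedom between 5.15 and 15.4).

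The genes named are those called with a mean of at least 5 CPM and the smallest p, 2 in each direction. The members, rule and alternatives were chosen with earlier results of these data known. Alternatives were other scalings and filters, DESeq2 1.42.0, limma 3.58.1, a replicate block, other sets of libraries and leaving out each library.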

Additional observations from a re-analysis of the deposited data

Results flagged for a closer look

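In control replicate 2 at 5 dpa, unusually few genes had a count for its group, 19888 where the rest had 21465 to 21650, and likewise for a count of at least 10, at 14930 against 15516 to 15597. DJKW.832 was also lowest there, at 6.52 CPM against 7.92 to 8.07 CPM. Control 5 dpa replicate 4 lay apart for DJKW.14394, at 217 CPM against 176 to 181 CPM, and for the called gene with the ninth smallest p, at 478 CPM against 411 to 420.1 CPM. These 5 values are the highest or lowest of 4 libraries by a wide gap; 33 groups of values were examined, and chance marks about 1 in 20.

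The RNAi difference of DJKW.14394 was larger at 5 dpa than in intact animals by -1.23 on the log2 scale in the test of the difference itself (edgeR adjusted p = 0.0125). The gene was no longer called when any of the 3 DjTcf4 RNAi libraries at 5 dpa, or intact control replicate 1, 2 or 3, was left out.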

How the results depend on the processing

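All 16 called genes kept their sign in every alternative they entered. For the count at 5 dpa (16), no filter gave 113, of which 102 were genes that the filter had kept. DESeq2 gave 55, limma-voom 32, all 15 libraries 8, and 14 libraries without intact DjTcf4 RNAi replicate 2 gave 28. A required fold change of 2 gave 10 by construction. Leaving out a library gave 6 to 16. In intact animals (1), DESeq2 gave 5, limma-voom 23 and all 15 libraries 2; leaving out a library gave 1 to 15. For the difference between stages (1), scaling by library size and using no filter gave 3 apiece, DESeq2 7 and limma-voom 4; leaving out a library gave 0 to 3, and the count was 0 when any DjTcf4 RNAi library at 5 dpa, or intact control 1, 2 or 3, was left out. Other causes of these shifts were not tested. Scaling by DESeq2 size factors or library size gave 14 and 12 calls at 5 dpa, all among the 16.

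With the replicate number as a block, edgeR called 6 genes at 5 dpa (646 at an unadjusted p under 0.05), 0 in intact animals (402) and 0 for the difference (426). Same-numbered DjTcf4 RNAi and control libraries at 5 dpa deviated from their group means with correlations of -0.197, -0.108 and 0.041 for numbers 1, 3 and 4. No library with a same-numbered partner correlated best with it. RNAi replicate 1 was highest with control 3 (0.405), replicate 3 with control 1 (0.154) and replicate 4 with control 2 (0.160). In intact animals the same-numbered correlations were -0.156, -0.231, -0.084 and 0.104 for numbers 1 to 4. With so few same-numbered libraries, these correlations cannot settle whether the numbers pair them.

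The differences in genes with a count (245 to 983 when leaving out a library) and in the share of the 100 most abundant genes (-0.805 to -0.280 percentage points) kept their sign. With a library left out, the exact test has too few splits to pass the threshold, so its p-values say nothing of stability. In the lowest of 4 bins by CPM the median standard error was 0.395, against 0.110 in the highest; the part of depth in this was not tested.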

Other observations

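Below the threshold, 10 genes had an edgeR adjusted p between 0.05 and 0.1 at 5 dpa, 8 lower and 2 higher with DjTcf4 RNAi, and 7 of them had fractional counts. The most abundant of these ranked 2 among all tested genes by CPM. It stood at 10722, 9181 and 8120.4 CPM in the DjTcf4 RNAi libraries, against 14012, 15496, 13103 and 12558 CPM in the controls, with no overlap (log2 fold change -0.56, SE 0.107, edgeR adjusted p = 0.077). For 5 dpa fragments over intact animals, its log2 fold change was 3.68 with DjTcf4 RNAi (SE 0.228, edgeR adjusted p = 0.000155) and 4.31 in controls (SE 0.105, edgeR adjusted p = 1.91e-12). In intact animals its RNAi log2 fold change was 0.08 (SE 0.179). Its counts were fractional, and it was chosen after its values were seen.

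DESeq2 and limma-voom together called 26 genes at 5 dpa, 18 lower and 8 higher, the 16 edgeR genes among them. Groups did not overlap in any of the 26, an arrangement seen in 3.32% of all tested genes below and 2.41% above. The 26 were chosen on these same libraries, so this adds no support. Their median edgeR log2 fold change at 5 dpa was -1.07 for the lower and 0.76 for the higher genes. In intact animals 16 of the 18 were below 0 (median -0.53) and 7 of the 8 above 0 (median 0.48). Of all genes with an unadjusted p under 0.05 at 5 dpa and tested in both stages, 279 of 424 lower genes (65.8%) and 191 of 282 higher genes (67.7%) had the same sign in intact animals, where 53.3% of all genes did. Genes are not independent replicates, and this is a description of these libraries.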
